A study of Homo sapiens with 50 samples.

Results

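The linker histone H1 hairpins were the 50 short hairpin RNAs (shRNAs) whose single gene name starts with HIST1H1 or H1F, out of 3443 hairpins in a pooled screen of chromatin regulators. They covered 10 genes with 5 hairpins each, of which 9 are described 1 by 1: HIST1H1A, HIST1H1B, HIST1H1C, HIST1H1D, HIST1H1E, H1FX, HIST1H1T, H1FNT and H1FOO. RefSeq's table of assembly GRCh38.p14 lists each of these 9 as an older name of 1 protein-coding gene, in that order H1-1, H1-5, H1-2, H1-3, H1-4, H1-10, H1-6, H1-7 and H1-8. None of the 188 hairpins that name several genes names an H1 gene. HILS1, with 5 hairpins, is a related gene that RefSeq lists as the pseudogene H1-9P, and it lies outside the name rule. The 6 HIST1 genes lie on chromosome 6 in that assembly.

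The cells were IMR90, human lung fibroblasts whose capacity to divide runs out with passage, grown at 3% oxygen. The screen sought chromatin genes whose knockdown prolongs growth: the hairpins were split into 5 lentiviral pools, each of 10 plates received 2 of the pools at a multiplicity of infection of 0.3, and every hairpin was thus on 4 plates. Genomic DNA of these passaged plates was taken at population doubling (PD) 40 as the proliferating state, at PD45, PD50 and PD55, and at PD60, when growth had ceased, and no group was uninfected. The deposited table has 1 pooled column of sequenced hairpin tags for each population doubling, with 8270745 to 11505688 tags. There was no replicate column, so no difference below has a replicate check or a p-value, and the intervals given cover counting error only.

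Linker histones sit on the outside of the nucleosome, where DNA enters and leaves the core particle, and help to fold chromatin into more compact fibres. Human cells carry several H1 genes: a set made mainly during DNA replication, a few made independently of replication in somatic cells, and a few restricted to germ cells. Loss of H1 protein has been described in senescent fibroblasts that form condensed heterochromatin foci. In a pooled screen of this kind a hairpin becomes more abundant when the cells that carry it leave more descendants than the rest of the culture, and less abundant when they leave fewer. Knockdown of the H1 genes was not measured in these data.

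The H1 hairpins as a family kept their share of the tags through PD50 and held very little of it at PD60. They held 1.95% of all tags at PD40 (95% exact binomial interval 1.94 to 1.96), 2.04% at PD45 and 2.19% at PD50 (2.18 to 2.20), then 0.517% at PD55 and 0.0607% at PD60 (0.0590 to 0.0624). They made up 1.45% of the hairpins in the table. Their share was thus above their part of the library through PD50 and below it at PD55 and PD60.

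A few hairpins made up much of the family total. HIST1H1B TRCN0000106807 held 35.7% of the H1 tags at PD40, and HIST1H1B TRCN0000106809 held 33.8% of them at PD50. Without both, the H1 share of all tags was 1.21% at PD40, 1.10% at PD45 and 1.03% at PD50. It was then 0.276% at PD55 and 0.0456% at PD60. TRCN0000106809 had 3782 tags at PD40, 21094 at PD45 and 62721 at PD50. TRCN0000106807 had 60029, 62136 and 35414 tags, so it did not bring the higher share at PD50. TRCN0000106809 was picked as the most abundant H1 hairpin at PD50, so the lower share without it is in part set by the choice.

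Levels are given as CPM, the count per 1000000 tags of its column. The median H1 hairpin had 126 CPM at PD40, 54.5 at PD45 and 12.1 at PD50, then 1.48 at PD55 and 0.121 at PD60, where 0.121 CPM is 1 tag. The median over the whole library was 118, 38.8, 7.78, 0.956 and 0.121 CPM in the same order of times. The lowest H1 hairpin at PD40, HIST1H1D TRCN0000106803, had 10.2 CPM and the highest, HIST1H1B TRCN0000106807, had 6959 CPM.

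Changes against PD40 were measured as log2 of CPM plus 1 over the same quantity at PD40, and a hairpin was called when this passed 2-fold. The scale understates the loss of hairpins that started low. At PD45, 3 of 50 H1 hairpins were over 2-fold higher, against 5.73% of all hairpins, and 27 (54.0%) were over 2-fold lower, against 63.2%. At PD50, 4 were higher, against 4.94%, and 39 (78.0%) lower, against 81.9%. At PD55, 2 were higher, against 2.92%, and 46 (92.0%) lower, against 91.7%.

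At PD60 none of the 50 H1 hairpins was over 2-fold higher, against 2.28% of all hairpins, and all 50 were over 2-fold lower with column totals, against 95.3%. With so few hairpins higher anywhere in the library, a count of 0 among 50 is close to the background. The median log2 change of the H1 hairpins was -1.23 at PD45 and -2.88 at PD50, then -4.77 at PD55 and -6.04 at PD60. Over all hairpins it was -1.63, -3.46, -4.93 and -5.86. On this scale the H1 median was above that of the library at PD45, PD50 and PD55 and below it at PD60. With 10 rather than 1 added to CPM it was below the library at PD55 too (-2.87 against -2.81). With HILS1 included it was level with the library at PD60 (-5.858 against -5.859). These differences were not tested.

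The directions depend on how the columns are scaled. TMM scaling takes its column factors from the bulk of hairpins rather than from the total. It did not make the bulk level here: the median of all hairpins at PD60 was -1.84 in place of -5.86. That of the H1 hairpins was -1.92. The 1 CPM was added after scaling, with factors of 8.94 at PD40 and 0.0777 at PD60, so it stood for more tags at PD40. A change on the TMM scale is thus not a distance from the library median. On that scale 8 H1 hairpins (16.0%) were over 2-fold higher at PD60, against 18.8% of all hairpins, and 33 (66.0%) were lower, against 64.4%. For 8 of the 9 H1 genes described below (all but HIST1H1C), the hairpin with the highest PD60 to PD40 ratio was higher at PD60 than at PD40 with TMM, as was HIST1H1B TRCN0000106807. These hairpins were picked by that ratio, so the count is in part set by the choice. It was not compared with other genes of the library. Directions below are relative to the column total unless TMM is named.

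H1 hairpins dropped out gradually, at about the pace of the library. The number of H1 hairpins under 1 CPM was 0 at PD40, 3 at PD45 and 13 at PD50, then 23 at PD55 and 32 at PD60, out of 50. In the library 0.697%, 8.97%, 28.9%, 50.5% and 70.4% of hairpins were under 1 CPM at these times. At PD60, 22 H1 hairpins (44.0%) had 0 tags, against 44.1% of all hairpins. A count of 0 allows up to 3 tags, or 0.363 CPM at PD60, so these 22 hairpins were at least 28.1-fold to at least 575-fold lower than at PD40. The other 28 had at least 1 tag and were 2.20-fold to 2128-fold lower, with a median of 157-fold. These are point values without the floor, so they cannot be compared with the bounds for 0 tags. The 2128-fold value was that of HIST1H1T TRCN0000106795, which had 1 tag at PD60. Its PD60 to PD40 ratio was 0.00047, with a counting interval that reached up to 0.00262.

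H1 hairpins with 0 tags at PD60 were mostly among those that started low, as in the library. All 7 H1 hairpins in the lowest quintile of PD40 abundance (at most 323 tags) had 0 tags at PD60, against 84.5% of all hairpins in that quintile. In the highest quintile (at least 2998 tags) this was 0 of 11 H1 hairpins, against 1.45%. The median log2 change at PD60 was -5.86 for the 11 H1 hairpins of the highest quintile and -6.24 for all hairpins there.

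Between neighbouring time points the median H1 step was above that of the library up to PD50 and below it afterwards. At PD50 relative to PD45, 2 of 47 H1 hairpins with at least 10 tags at either time were over 2-fold higher, against 2.22% of all, and 30 were lower, against 71.4%. The median step was -1.38 on the log2 scale for H1 hairpins and -1.60 for all hairpins. After PD50 no H1 hairpin was over 2-fold higher than at the time before. At PD55 relative to PD50, 0 of 36 were higher, against 1.7%, and 31 lower, against 80.8%, with a median of -2.41 for H1 and -1.91 for all hairpins. At PD60 relative to PD55, 0 of 27 were higher, against 5.4%, and 21 lower, against 73.2%, with a median of -2.47 for H1 and -1.82 for all hairpins. These differences between medians were not tested.

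Most H1 hairpins were highest at PD40. A later peak in CPM was seen for 7 of 50 (14.0%), against 19.6% of all hairpins. The peak was at PD45 for 2, against 12.0%, at PD50 for 4, against 3.98%, at PD55 for 1, against 1.74%, and at PD60 for 0, against 1.95%. The 4 with a peak at PD50 belong to HIST1H1B, HIST1H1D (2 hairpins) and H1FNT, and the 1 with a peak at PD55 to H1FOO.

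Over the whole course, 4 of 50 H1 hairpins (8.00%) were over 2-fold higher than PD40 at some later time, against 8.59% of all hairpins. They were 1 hairpin each of HIST1H1B, HIST1H1D, H1FNT and H1FOO. Together these 4 hairpins held 12.5% of the H1 tags at PD40, 32.3% at PD45 and 63.0% at PD50, then 69.5% at PD55 and 37.1% at PD60. The other 46 H1 hairpins summed to 17064 CPM at PD40, 13842 at PD45 and 8103 at PD50, then 1580 at PD55 and 382 at PD60. These 4 were picked by their increase, so their gain in share is set by the choice and is a description.

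HIST1H1B encodes H1.5, a replication-coupled H1 of dividing cells, and 1 of its hairpins had the largest increase over PD40 in the H1 family. This hairpin, TRCN0000106809, had 438 CPM at PD40, 2402 at PD45 and 7397 at PD50, then 1696 at PD55 and 31.8 at PD60. At PD50 it was 16.9-fold above PD40 (95% counting interval 16.3 to 17.4), the rank 7 log2 change of 3422 hairpins. It was still 3.87-fold above PD40 at PD55 (3.74 to 4.01). At PD60 it was 53.3-fold lower than at PD55 and 13.8-fold lower than at PD40.

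The most abundant H1 hairpin of the starting culture also targeted HIST1H1B. TRCN0000106807, at rank 9 of 3443 at PD40, had 6959 CPM at PD40, 7075 at PD45 and 4176 at PD50, then 715 at PD55 and 119 at PD60. It held its level over the first step and was 58.5-fold lower at PD60 than at PD40. The remaining HIST1H1B hairpins did not share this course. TRCN0000106808 had 82.8, 8.88, 1.53, 0.521 and 0 CPM, at least 228-fold lower at PD60, and TRCN0000106805 and TRCN0000106806 also ended at 0 tags. The mean log2 change at PD50 was -1.93 with an SD over the 5 hairpins of 4.04, the widest spread among the H1 genes at that time.

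HIST1H1D encodes H1.3, another replication-coupled H1, and had the highest H1 gene mean at PD50. Its TRCN0000106804 had 414 CPM at PD40, 981 at PD45 and 1834 at PD50, then 198 at PD55 and 8.46 at PD60. It was 4.43-fold above PD40 at PD50 (4.27 to 4.59) and 48.9-fold below at PD60. A further hairpin, TRCN0000106801, named after its values were seen, peaked at the same time without passing 2-fold, with 358, 570.4, 663, 93.7 and 2.78 CPM. The 1 HIST1H1D hairpin at 0 tags at PD60, TRCN0000106803, started lowest of all H1 hairpins, with 10.2, 0.797, 1.06, 0.0869 and 0 CPM over the 5 times.

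The HIST1H1D gene mean was -0.50 at PD45 and -0.45 at PD50, then -2.98 at PD55 and -6.08 at PD60 (SD 1.55, 1.97, 1.53 and 1.69 over 5 hairpins). Among the 631 genes with at least 3 hairpins these means ranked 54, 9, 65 and 447. By this rank the gene was near the top of the library at PD50 and in its lower part at PD60. The ranks were not adjusted for starting abundance. All its hairpins but TRCN0000106803 were in quintiles 4 and 5 of PD40 abundance, with 5 the highest. The median log2 change of all hairpins there at PD50 was -2.81 and -1.48. At PD50, 1 of 5 HIST1H1D hairpins was over 2-fold higher, against 4.94% of all hairpins, and 2 were lower, against 81.9%. With TMM 3 were higher, against 25.6%, and 0 lower, against 46.4%. With the 50 most abundant hairpins left out of the totals the mean at PD50 was 0.20, and with TMM it was 2.24.

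HIST1H1E encodes H1.4, one of the most widely made somatic H1 proteins, and had the lowest of the 9 H1 gene means at PD45, PD50 and PD55. All 5 hairpins were over 2-fold lower at PD45 with column totals, against 63.2% of all hairpins, and 3 with TMM, against 34.3%. Its PD45 mean of -3.05 (SD 1.42) ranked 603 of 631 genes. At PD50 the mean of -4.53 (SD 1.82) ranked 590. All 5 hairpins were in quintiles 2 and 3 of PD40 abundance, where the library medians at PD50 were -4.73 and -3.68. TRCN0000106673 had 118 CPM at PD40, 4.67 at PD45 and 0.118 at PD50, then 0 at PD55 and 0 at PD60, at least 325-fold lower. Its highest hairpin at PD60, TRCN0000106672, had 139, 41.3, 15.2, 2.00 and 1.45 CPM. By PD60 the HIST1H1E mean of -6.28 (SD 0.74) ranked 498, and the 5 hairpins summed to 13 tags, against 4529 at PD40.

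HIST1H1C encodes H1.2, likewise made in most somatic cells. Its mean was -0.97 at PD45 and -3.15 at PD50, then -4.90 at PD55 and -5.99 at PD60 (SD 0.81 at PD60), ranks 146, 297, 388 and 421. TRCN0000106851 had 122, 151, 47.6, 8.43 and 0.846 CPM, and TRCN0000106854 had 103, 47.3, 12.7, 0.435 and 0 CPM, at least 283-fold lower. With column totals no HIST1H1C hairpin passed 2-fold higher at any later time, against 8.59% of all hairpins. With TMM 2 of 5 did at PD45, against 19.8%. At PD60, 3 of 5 were at 0 tags, against 44.1%.

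HIST1H1A encodes H1.1, which is restricted to fewer tissues than the other replication-coupled forms. Its hairpin TRCN0000106821 was lower early and then nearly level, with 191 CPM at PD40, 30.7 at PD45 and 14.6 at PD50, then 13.3 at PD55 and 12.0 at PD60. TRCN0000106820 had 78.0, 2.96, 1.42, 0.0869 and 0 CPM, at least 215-fold lower at PD60. The gene mean ranked 542 of 631 at PD45 (-2.55, SD 1.82) and 359 at PD60 (-5.75, SD 1.52).

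H1FX encodes H1X, a replication-independent and the most divergent somatic H1, and its hairpins started low. They summed to 339 CPM at PD40, the lowest of the 9 genes, and to 2.66 CPM at PD60. The next lowest sums at PD40 were 525 CPM for HIST1H1E and 558 CPM for HIST1H1C. The highest was 7571 CPM for HIST1H1B, of which TRCN0000106807 gave 6959. TRCN0000106887 had 166 CPM at PD40, 74.2 at PD45 and 35.4 at PD50, then 21.7 at PD55 and 2.54 at PD60, and it supplied 21 of the 22 H1FX tags at PD60. TRCN0000106889 had 47.2, 24.5, 1.42, 0 and 0 CPM, at least 130.1-fold lower at PD60. With column totals none of the 5 H1FX hairpins was over 2-fold higher at any later time, against 8.59% of all hairpins. With TMM 1 was at PD55, against 23.6%. At PD60, 3 of 5 were at 0 tags, against 44.1%. The gene mean ranked 486 of 631 at PD45 (-2.27, SD 1.34) and 269 at PD60 (-5.37, SD 0.56). At PD60, 4 of the 5 hairpins were under 1 CPM, against 70.4% of all hairpins. There the 1 CPM added limits the log2 change, so the mean, rank and SD at PD60 are in part set by the low start. The summed H1FX tags were 128-fold lower at PD60 than at PD40.

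The germ cell forms include the most abundant H1 hairpin at PD60. HIST1H1T encodes H1t of spermatocytes, H1FNT encodes H1T2 of spermatids, and H1FOO encodes the oocyte H1. Fibroblast RNA was not measured in these data, so whether these genes were expressed is not shown here. Their 15 hairpins held 0.691% of tags at PD40, 0.704% at PD45 and 0.649% at PD50, then 0.227% at PD55 and 0.0410% at PD60, and 9 of 15 were under 1 CPM at PD60, against 70.4% of all hairpins. Of the 25 replication-coupled hairpins, 15 were under 1 CPM. The median log2 change at PD60 was -6.62 for the germ cell forms and -6.05 for the replication-coupled forms. Zero counts and summed tags pointed the other way. Of the germ cell hairpins 4 (26.7%) ended at 0 tags, against 12 (48.0%) of the replication-coupled ones and 44.1% of all hairpins. The replication-coupled sum went from 1.17% of its column (PD40) to 0.0190% (PD60), a larger relative drop than for the germ cell forms. These differences were not tested.

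H1FOO TRCN0000106814 peaked later than any other H1 hairpin. It had 231 CPM at PD40, 255 at PD45 and 781 at PD50, then 974 at PD55 and 105 at PD60. It was 4.21-fold above PD40 at PD55 (4.01 to 4.42) and 2.20-fold below it at PD60, the smallest loss of the family. Scaled to totals without the 50 most abundant hairpins, this hairpin was instead higher at PD60 than at PD40, with a log2 change of 2.00, and with TMM it was 5.65. TRCN0000106813, at rank 90 at PD40, had 1570.1, 1247, 529, 52.1 and 3.63 CPM and was 433-fold lower at PD60. TRCN0000106810 had 64.2, 23.5, 6.49, 0.174 and 0 CPM. The H1FOO mean at PD60 was -5.02 with an SD of 3.02, the widest of the 9 genes, and it was 0.79 with TMM.

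H1FNT TRCN0000106861 had 1360.4 CPM at PD40, 2959 at PD45 and 3796 at PD50, then 727 at PD55 and 79.9 at PD60. At PD50 it was 2.79-fold above PD40 (2.73 to 2.85), and at PD60 it was 17.0-fold below. It accounted for 661 of the 672 H1FNT tags at PD60. The other 4 H1FNT hairpins ended at 0 to 8 tags, and TRCN0000106860 had 131, 34.3, 0.943, 0.348 and 0 CPM, at least 361-fold lower.

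HIST1H1T TRCN0000106796 was the most abundant H1 hairpin at PD60. It had 1794 CPM at PD40, 1783 at PD45 and 867 at PD50, then 254 at PD55 and 162 at PD60, and stood at rank 76 of 3443 at PD40 and at rank 177 at PD60. It was 11.1-fold lower at PD60 than at PD40, and 1.57-fold lower at PD60 than at PD55. The other 4 HIST1H1T hairpins ended at 0 or 1 tag; TRCN0000106799 had 208, 115, 28.3, 1.48 and 0 CPM, at least 575-fold lower. The HIST1H1T mean at PD60 was -6.40 (SD 1.77), rank 516 of 631 genes.

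Hairpins against the same H1 gene thus differed widely. The SD over 5 hairpins of a gene at PD60 ran from 0.56 for H1FX to 3.02 for H1FOO, while the means of the 9 genes lay between -6.40 and -5.02. The 1 CPM added limits the change of hairpins near 0 tags, so the small SD of H1FX is in part set by it. The median gene mean of the library at PD60 was -5.59. At PD50 the H1 gene means spanned -4.53 (HIST1H1E) to -0.45 (HIST1H1D), with a library median of -3.21. With TMM the PD50 means of HIST1H1B, HIST1H1D, H1FNT and H1FOO were above 0. How many genes of the library were above 0 on that scale was not counted. Hairpin sequences were not used here, so matches of 1 hairpin to several H1 genes, which are alike in sequence, were not tested. The 28 H1 hairpins of all 10 genes that the naming rule did not pick started at 167 to 6236 tags, ended at 0 to 477 tags and had log2 changes at PD60 between -7.91 and -2.68.

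At PD60 the H1 hairpins and those of the core histone families had few members over 2-fold higher with column totals: 0 of 50 for H1, 5 of 70 for H2A, 2 of 69 for H2B, 0 of 53 for H3 and 2 of 53 for H4, against 2.28% of all hairpins. With TMM the counts were 8 of 50 for H1, 22 of 70 for H2A, 17 of 69 for H2B, 8 of 53 for H3 and 12 of 53 for H4, against 18.8%. Differences between families were not tested. The H3 share of tags at PD60 was 0.0370%. H1 held 0.0607% of tags at PD60, H2A 3.45%, H2B 7.41% and H4 4.03%. Much of each share was 1 hairpin: H2BFS TRCN0000106904 had 92.6% of the H2B tags, HIST4H4 TRCN0000074266 90.0% of the H4 tags and HIST1H2AH TRCN0000106761 57.8% of the H2A tags. The median log2 change at PD60 was -6.04 for H1, -5.07 for H2A, -5.78 for H2B, -6.31 for H3 and -5.88 for H4, and these differences were not tested.

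Genes known to load, displace, modify or bind H1 gave a further 78 hairpins for 17 of a list of 19 gene names; CDK2 and L3MBTL1 had no single-gene row under those names. At PD60, 4 of 78 (5.13%) were over 2-fold higher, against 2.28% of all hairpins, and 71 (91.0%) lower, against 95.3%. With TMM 21 of 78 were higher, against 18.8%. The 4 were 1 hairpin each of PADI4, an enzyme that citrullinates H1 and core histones, HMGB1, which competes with H1 for linker DNA, SIRT1, a deacetylase that acts on H1, and NAP1L4, a histone chaperone. With column totals the highest gene means were those of PADI4 (-2.33, SD 5.07) and HMGB1 (-3.49, SD 4.70). With TMM these were 2.99 and 0.19, and NAP1L4 (1.53) and HMGN2 (1.02, 1 hairpin) were above HMGB1. The lowest with column totals were those of HMGA1 (-6.17, SD 1.55) and CHD8 (-6.02, SD 0.75). With TMM these were -1.61 and -2.10, above PARP1 (-2.64) and PTMA (-2.56). Of the PADI4 hairpins 1 of 5 was over 2-fold higher, and of the HMGB1 hairpins 1 of 5. The hairpins over 2-fold higher were 47.9-fold above PD40 at PD60 for SIRT1, 27.1-fold for HMGB1, 26.6-fold for PADI4 and 15.3-fold for NAP1L4.

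PADI4 TRCN0000051678 had 621 CPM at PD40, 1146 at PD45 and 2531 at PD50, then 11906 at PD55 and 16507 at PD60. HMGB1 TRCN0000018930 had 732, 4145, 6602, 32745 and 19814 CPM. These hairpins were picked for being higher at PD60. With column totals, the highest H1 level in any column was the 7397 CPM of HIST1H1B TRCN0000106809 at PD50, and the highest at PD60 was the 162 CPM of HIST1H1T TRCN0000106796.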

How the data were processed

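Genomic DNA of 50 samples, 10 plates at each of 5 population doublings, was grouped by the population doubling in the labels. The authors deposited counts, per the file headers as tags per hairpin, in 1 column for each population doubling. The submitters' processing notes name Bowtie 1.0.1. For its settings and the merging of plates, nothing is given in the sources used here, and each column was taken as the authors' pooled value. Columns per plate were not used here.

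Counts were divided by column totals to give CPM. Log2 changes used a pseudocount of 1 CPM and a minimum of 10 counts in at least 1 of both columns. Ratios have exact 95% intervals conditional on the summed count, and a count of 0 was set to a floor of 3 counts for bounds. The tags are PCR products that carry no molecular identifier, and these intervals and floors describe counting error alone. Gene values are means over hairpins with the SD over hairpins, which are not replicates. Ranks are among genes with at least 3 hairpins naming only that gene and were not adjusted for starting abundance. With 1 column per time no test was run. TMM factors over all hairpins, from edgeR 4.0.16 in R 4.3.3, ran from 8.94 at PD40 to 0.0777 at PD60. Other steps used Python 3.11.15, numpy 2.4.6, pandas 2.3.3 and scipy 1.17.1. The fold and interval calculations were tested on simulated Poisson counts with known totals and set fold changes. That simulation held no loss of most hairpins and no PCR noise, so it checks the arithmetic and not the scaling of these columns.

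Members, partner list, H1 classes and naming rule were chosen with earlier results of these data known. The rule gave all 5 columns for each gene's highest and lowest PD60 to PD40 ratio (among hairpins at 0, the one with most tags at PD40), for hairpins over 2-fold higher at any later time and for the 3 most abundant at PD40. For the partner list it named the 2 highest and 2 lowest gene means. Of the 10 member genes, 1 is not reported here by itself; its hairpins count in the family values.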

Additional observations from a re-analysis of the deposited data

How the results depend on the processing

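No paired analysis was possible because all 10 plates of a time share 1 column, which also left no plate to leave out. Rows naming several genes held no H1 gene, so that alternative gave no value. Without a count minimum and with at least 100 counts, the family medians moved by under 0.1 and the family counts by under 1.5 times. With at least 100 counts the HIST1H1D mean at PD60 was -6.72 over 4 hairpins, in place of -6.08 over 5. Causes were not tested; a higher fold threshold lowers counts by construction.

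With TMM scaling the H1 medians at PD45, PD50, PD55 and PD60 were -0.069, -0.19, -0.76 and -1.92. The medians of all hairpins were -0.43, -0.79, -1.26 and -1.84. Of the 50 H1 hairpins 11, 15, 14 and 8 were higher, against 19.8%, 25.6%, 23.6% and 18.8% of all hairpins. Lower were 16, 18, 24 and 33, against 34.3%, 46.4%, 54.8% and 64.4%. Totals without the 50 hairpins most abundant at PD60 gave H1 medians of -0.99, -2.19, -3.77 and -5.14. Over all hairpins these were -1.40, -2.93, -4.27 and -5.08. With these totals 1 H1 hairpin was higher at PD60, against 6.64% of all hairpins. The PD60 to PD40 ratio of the H1 share was then 0.275, in place of 0.0311. That ratio was 0.0252 without HIST1H1T TRCN0000106796, the most abundant H1 hairpin at PD60. A pseudocount of 10 CPM gave H1 medians of -1.02, -2.03, -2.87 and -3.46, against -1.20, -2.07, -2.81 and -3.22 over all hairpins. With 0.1 CPM the H1 medians were -3.03, -5.78 and -8.28 at PD50, PD55 and PD60, against -3.85, -6.45 and -8.21. A 4-fold threshold left 1, 2 and 1 H1 hairpins higher at PD45, PD50 and PD55, against 1.20%, 2.05% and 1.67% of all hairpins. It left 17 lower at PD45, against 42.7%. Chosen after seeing the data, adding HILS1 gave medians of -2.75, -4.50 and -5.86 at PD50, PD55 and PD60, and leaving out HIST1H1B TRCN0000106807 gave a share ratio of 0.0389.

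At PD60 TMM turned 9 named hairpins upward: H1FNT TRCN0000106861 (2.75), H1FOO TRCN0000106814 (5.65), H1FX TRCN0000106887 (0.78), HIST1H1A TRCN0000106821 (2.79), HIST1H1B TRCN0000106807 (0.98) and TRCN0000106809 (3.04), HIST1H1D TRCN0000106804 (1.22), HIST1H1E TRCN0000106672 (0.25) and HIST1H1T TRCN0000106796 (3.37). All but HIST1H1B TRCN0000106807 were named for the highest ratio of their gene, a choice that favours this direction. TMM turned the H1FOO mean to 0.79. Without the 50 most abundant, H1FOO TRCN0000106814 was at 2.00. TMM put 6, 4, 4 and 1 of 10 H1 gene means above 0 at PD45, PD50, PD55 and PD60. Of the 17 partner genes it put 7, 7, 9 and 4 above 0. Such gene means were not counted over the whole library, so these counts have no background and do not show enrichment. Hairpins at 0 or 1 tag at PD60 have no order there.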
